A study of Homo sapiens with 12 samples.

Results

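Hodgkin lymphoma grows from B cells whose B-cell programme is largely silenced, and the genes described here are the transcription factors that set up that programme together with proteins that oppose them. The set was chosen by name, with earlier results of these data known. It holds 10 genes: PAX5, EBF1, TCF3, POU2AF1, POU2F2, SPI1, IKZF1, IKZF3, ID2 and MSC. A gene was read from probe sets that carry its symbol alone, taking the brightest, and 9 of the 10 had such a probe set, 1 each, among 18404 genes in all. The only probe set annotated with EBF1 also carries a second gene symbol, so EBF1 is not analysed here.

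As background, TCF3 encodes the E proteins E12 and E47, which bind E-box sequences as basic helix-loop-helix dimers and act at the head of the B-lineage cascade with EBF1 and PAX5. ID2 is a helix-loop-helix protein without a basic region that pairs with E proteins and keeps them off DNA, and MSC (also called ABF-1) is a basic helix-loop-helix repressor that dimerises with them. POU2F2 (OCT2) and its coactivator POU2AF1 (OBF-1) act on octamer sites of immunoglobulin genes, SPI1 (PU.1) is an ETS factor of myeloid and B cells, and IKZF1 (Ikaros) and IKZF3 (Aiolos) are zinc finger factors of lymphoid development.

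Levels came from 12 one-colour arrays of the Hodgkin lymphoma cell lines U-HO1 and L-1236. The groups, of 3 arrays each, were U-HO1 transduced with an shRNA against GATA-3 (labelled knockdown), U-HO1 with a non-functional control shRNA (labelled control), L-1236 labelled knockdown and L-1236 labelled control. Cells of all groups carried an shRNA vector, grew for 3 days and were sorted by GFP before RNA of 25000 cells per sample was amplified. U-HO1 was kept in IMDM and L-1236 in RPMI 1640, so line and medium cannot be told apart. Samples are described as independent, but no separate cultures are named, so each p-value rests on a spread among arrays that may be technical. Each line is a single cell line and stands for no other Hodgkin tumour.

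Values are log2 levels as the authors normalized them, and a difference of 1 is a 2-fold difference if the base is 2, which was read from their range. Array medians lay between 6.96 and 7.09. The table gives no detection call, so 350 probe sets of olfactory receptor genes, which lymphoid cells are not known to use, served as a guide to background: their median was 5.82 to 5.96 and their 95th percentile 6.61 to 6.87 over the 12 arrays. All 6 genes listed as Hodgkin line markers read above that percentile on every array, among them TNFRSF8, which encodes CD30, at 10.04 to 10.50 in U-HO1 and 9.36 to 9.92 in L-1236. TRAF1 in L-1236 (6.75 to 7.23) and CCL22 in U-HO1 (6.75 to 7.39) came close to that percentile. Of 5 T-cell markers 4 were above it on no array. Of 4 monocyte markers 3 were above it on no array, the exception being CSF1R. The collagen gene COL1A1, listed as a fibroblast marker, was above it on all 12 arrays, at 7.68 to 7.95 in U-HO1 and 7.78 to 8.10 in L-1236. The other fibroblast markers, COL1A2 and COL3A1, were above it on 11 arrays each.

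GATA3, the target of the shRNA, read 11.07, 10.12 and 10.22 on U-HO1 arrays labelled knockdown and 11.24, 10.90 and 10.24 on those labelled control, in the order of replicates 1, 2 and 3. In L-1236 it read 10.80, 10.00 and 10.24 on arrays labelled knockdown and 10.29, 10.69 and 9.95 on those labelled control. The labels overlapped in both lines. GATA3 averaged 10.47 ± 0.52 on U-HO1 arrays labelled knockdown and 10.79 ± 0.51 on those labelled control (SD, n = 3 each; exact two-sided permutation test, p = 0.5, smallest possible 0.1). In L-1236 it averaged 10.34 ± 0.41 on arrays labelled knockdown and 10.31 ± 0.37 on those labelled control (same exact test, p = 0.9). Arrays labelled knockdown were thus not shown to hold less GATA3. Below, a knockdown array means an array so labelled, a control array likewise, and directions follow those labels.

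The members split in both directions between the lines. On control arrays, PAX5, POU2AF1 and TCF3 were lower in U-HO1, IKZF3 and both antagonists, ID2 and MSC, were higher, and POU2F2, SPI1 and IKZF1 did not pass the test. By limma, 6 of 9 members passed an adjusted p under 0.05, against 32.0% of all genes: 3 were higher, against 16.4%, and 3 were lower, against 15.6%. Of these, 5 were at least 2-fold apart, against 6.99% of all genes: 3 were higher, against 3.78%, and 2 were lower, against 3.21%. The median log2 difference of the members was -0.02 and that of all genes -0.0023. Since the set was chosen with earlier results of these data known, these counts describe the members and give no independent support.

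**Figure D1:**
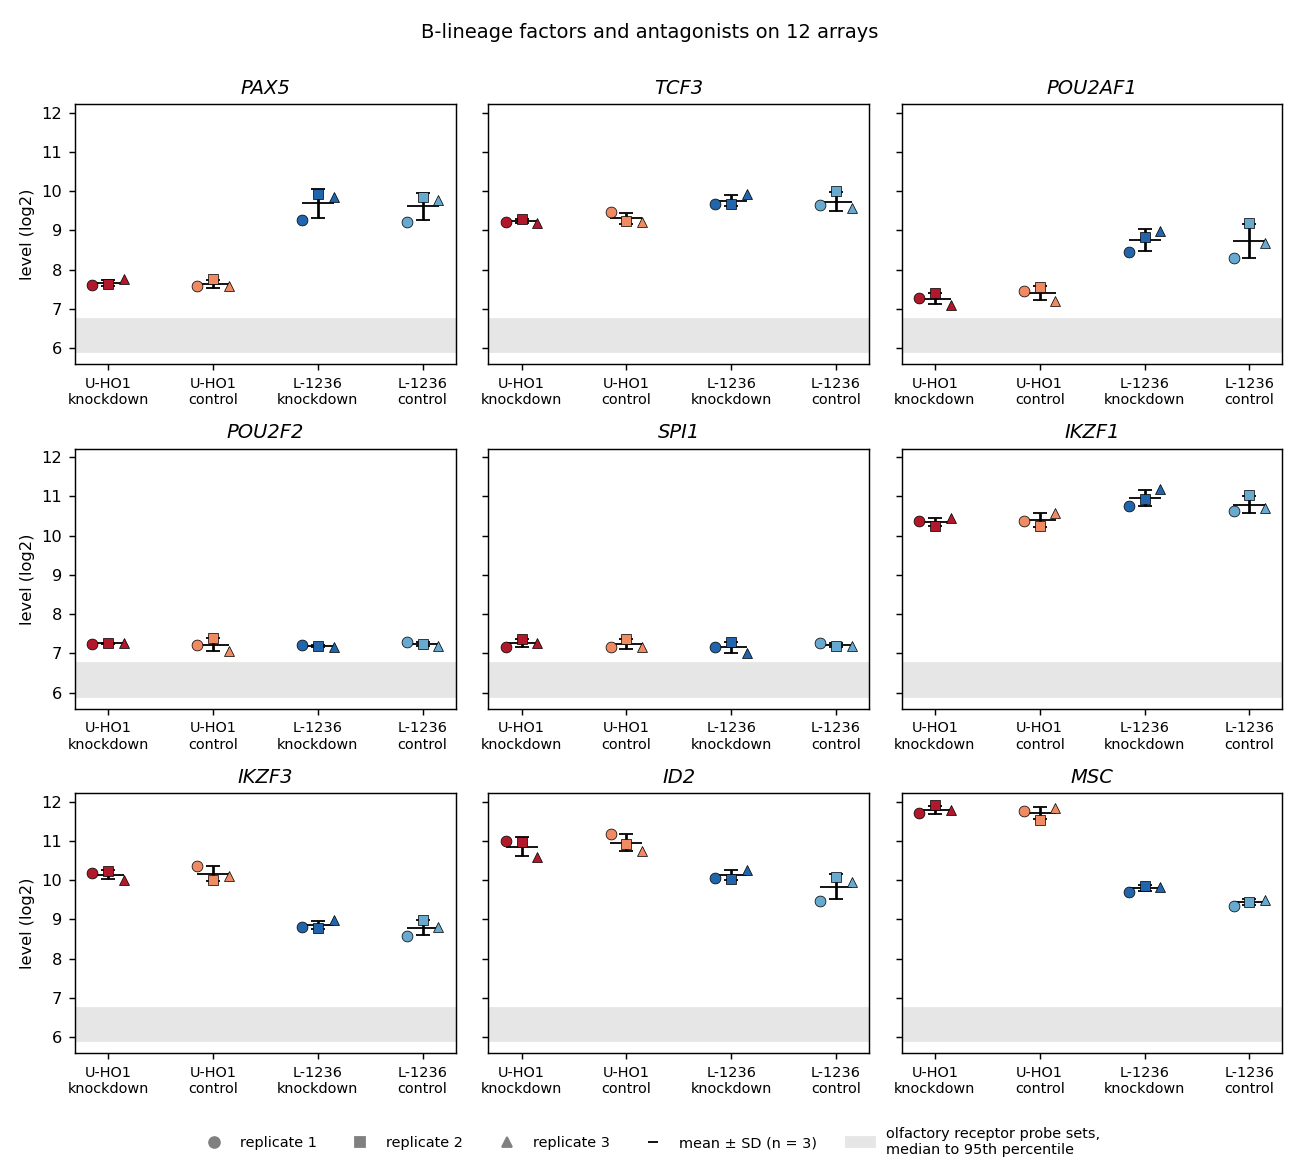
Log2 level (y axis) of 9 genes in the 4 groups (x axis), with 1 symbol per array shaped by replicate number, and the mean with its SD (n = 3) as a bar. The grey band runs from the median to the 95th percentile of olfactory receptor probe sets, averaged over the arrays. PAX5 lies at 7.57 to 7.76 in U-HO1 and at 9.22 to 9.93 in L-1236, while MSC lies at 11.53 to 11.91 in U-HO1 and at 9.35 to 9.85 in L-1236.

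PAX5, the factor that commits cells to the B lineage, read 7.61, 7.64 and 7.75 on U-HO1 knockdown arrays and 7.58, 7.76 and 7.57 on U-HO1 control arrays, in the order of replicates 1, 2 and 3. The L-1236 values were 9.27, 9.93 and 9.86 on knockdown arrays and 9.22, 9.86 and 9.76 on control arrays. Every U-HO1 array lay below every L-1236 array, and within a line the labels overlapped. The control means were 7.64 ± 0.10 in U-HO1 and 9.61 ± 0.35 in L-1236 (SD, n = 3 each), a log2 difference of -1.97 (SE 0.18, limma adjusted p = 7.12e-06), or 3.93-fold lower in U-HO1. Even the U-HO1 levels stood above the 95th percentile of olfactory receptor probe sets. The fibroblast marker COL1A1 read 7.68 to 7.95 on the same arrays, however. Passing that guide therefore does not show that PAX5 is expressed in U-HO1, and the size of the difference may depend on background.

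TCF3 read 9.21, 9.29 and 9.20 on U-HO1 knockdown arrays and 9.47, 9.23 and 9.22 on U-HO1 control arrays. L-1236 arrays gave 9.67, 9.68 and 9.93 on knockdown arrays and 9.65, 10.00 and 9.56 on control arrays. The lines did not overlap but lay close together. The control difference was -0.43 (SE 0.12, limma adjusted p = 0.0180), 1.35-fold lower in U-HO1. This call was lost without U-HO1 control replicate 2 (-0.39, adjusted p = 0.0618), U-HO1 control replicate 3 (-0.38, adjusted p = 0.0656) or L-1236 control replicate 2 (-0.30, adjusted p = 0.0635).

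The promoters of PAX5 and ID2 are shown because one gene was lower and the other higher in U-HO1 and because E proteins, which ID2 binds, recognise the E-box CANNTG. They are RefSeq windows of 300 bases on GRCh38.p14, from 250 bases before the start of the gene to 50 after it, in the direction of the gene, with each match to the E-box in capitals. PAX5 is taken from chr9:37034219-37034518, minus strand, and ID2 from chr2:8681806-8682105, plus strand.
PAX5: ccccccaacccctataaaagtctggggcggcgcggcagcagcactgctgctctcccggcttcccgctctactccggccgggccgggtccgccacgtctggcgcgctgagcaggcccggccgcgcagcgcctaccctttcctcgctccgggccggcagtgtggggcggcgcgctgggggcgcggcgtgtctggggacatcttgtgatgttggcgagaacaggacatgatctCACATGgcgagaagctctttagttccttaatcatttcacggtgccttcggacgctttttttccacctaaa
ID2: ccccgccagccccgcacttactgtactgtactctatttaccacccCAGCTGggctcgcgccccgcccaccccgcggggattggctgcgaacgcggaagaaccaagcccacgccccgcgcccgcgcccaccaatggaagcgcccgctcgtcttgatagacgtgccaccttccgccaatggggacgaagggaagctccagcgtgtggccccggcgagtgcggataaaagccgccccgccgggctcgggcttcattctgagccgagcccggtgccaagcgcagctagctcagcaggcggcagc
The PAX5 window holds 1 E-box, at bases 231 to 236, and the ID2 window holds 1, at bases 46 to 51. Of 35116 promoter windows of this length in the RefSeq table, 68.7% hold at least 1 E-box, so its presence is common. The ID2 window also holds GATAA at bases 220 to 224, which begins 31 bases before the start of the gene. GATA factors read this core, but it is found on either strand in 22.7% of windows, and the PAX5 window holds no match. Other motifs searched matched too. The ID2 window holds CCCNNGGG, searched for EBF1, at bases 70 to 77 (19.1% of windows), and 3 matches to CCAAT (34.6%). The PAX5 window holds GAGGAA, searched for PU.1, on the other strand at bases 137 to 142 (27.9%). Neither window holds the octamer ATGCAAAT on either strand, which 1.77% of windows hold. No E-box overlapped another motif searched. These matches describe the letters of the reference and no binding was measured.

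Of the octamer factors, the coactivator POU2AF1 was lower in U-HO1. It read 7.28, 7.40 and 7.11 on U-HO1 knockdown arrays and 7.47, 7.55 and 7.21 on U-HO1 control arrays. For L-1236 the levels were 8.45, 8.82 and 8.99 on knockdown arrays and 8.31, 9.18 and 8.69 on control arrays. The lines did not overlap, and the labels overlapped within each line. The control means were 7.41 ± 0.17 in U-HO1 and 8.72 ± 0.44 in L-1236, a log2 difference of -1.31 (SE 0.20, limma adjusted p = 0.000343), or 2.49-fold lower in U-HO1. Every U-HO1 level of POU2AF1 lay below those of the fibroblast marker COL1A1 on U-HO1 arrays (7.68 to 7.95). These levels therefore do not show that POU2AF1 is expressed in U-HO1, and the size of the difference may depend on background.

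POU2F2, the DNA-binding partner of POU2AF1, read 7.24, 7.26 and 7.26 on U-HO1 knockdown arrays and 7.22, 7.38 and 7.06 on U-HO1 control arrays. Arrays of L-1236 read 7.21, 7.19 and 7.17 on knockdown arrays and 7.29, 7.23 and 7.19 on control arrays. The lines overlapped. Its control means were 7.22 ± 0.16 in U-HO1 and 7.24 ± 0.05 in L-1236, a difference of -0.02 (95% interval -0.19 to 0.16, limma adjusted p = 0.929). SPI1 read 7.17, 7.36 and 7.27 on U-HO1 knockdown arrays and 7.17, 7.38 and 7.17 on U-HO1 control arrays. In L-1236 it read 7.17, 7.28 and 7.01 on knockdown arrays and 7.26, 7.20 and 7.18 on control arrays, again overlapping. Its control means were 7.24 ± 0.12 in U-HO1 and 7.21 ± 0.04 in L-1236, a difference of 0.03 (95% interval -0.16 to 0.22, adjusted p = 0.876). Both genes lay above the 95th percentile of olfactory receptor probe sets on every array, by less than 1 log2 unit. Every level of both genes lay below those of COL1A1, at 7.68 to 7.95 in U-HO1 and 7.78 to 8.10 in L-1236. These levels therefore do not show that POU2F2 or SPI1 is expressed in either line. A small difference in either gene may not be visible at such levels.

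Of the Ikaros factors, IKZF3 was higher in U-HO1 and IKZF1 did not pass the test on control arrays. IKZF3 read 10.17, 10.23 and 10.01 on U-HO1 knockdown arrays and 10.37, 10.01 and 10.10 on U-HO1 control arrays. The L-1236 values were 8.82, 8.78 and 8.98 on knockdown arrays and 8.58, 8.98 and 8.82 on control arrays. The lines lay more than 1 log2 unit apart, with a control difference of 1.37 (SE 0.12, limma adjusted p = 4.11e-06), or 2.58-fold higher in U-HO1.

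IKZF1 read 10.37, 10.25 and 10.45 on U-HO1 knockdown arrays and 10.38, 10.24 and 10.59 on U-HO1 control arrays. L-1236 arrays gave 10.76, 10.94 and 11.18 on knockdown arrays and 10.62, 11.04 and 10.71 on control arrays. The 6 arrays of one line did not overlap the 6 of the other, but the highest U-HO1 array and the lowest L-1236 array nearly met. The control difference of -0.39 (SE 0.13) missed the threshold (limma adjusted p = 0.0534), and over all 6 arrays of each line a difference of -0.49 (SE 0.09) passed it (adjusted p = 0.00123). The control difference also passed without U-HO1 control replicate 3 (-0.48, adjusted p = 0.0335), L-1236 knockdown replicate 1 (-0.39, adjusted p = 0.0449), L-1236 knockdown replicate 3 (-0.39, adjusted p = 0.0397) or L-1236 control replicate 1 (-0.47, adjusted p = 0.0400).

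Both antagonists of the E proteins were higher in U-HO1. MSC read 11.70, 11.91 and 11.78 on U-HO1 knockdown arrays and 11.76, 11.53 and 11.85 on U-HO1 control arrays. For L-1236 the levels were 9.70, 9.85 and 9.82 on knockdown arrays and 9.35, 9.45 and 9.50 on control arrays. No other member separated the lines by as much: the control difference was 2.28 (SE 0.09, limma adjusted p = 6.95e-09), or 4.85-fold higher in U-HO1.

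ID2 read 11.01, 10.97 and 10.58 on U-HO1 knockdown arrays and 11.18, 10.92 and 10.75 on U-HO1 control arrays. Arrays of L-1236 read 10.06, 10.04 and 10.26 on knockdown arrays and 9.48, 10.09 and 9.94 on control arrays. The lines did not overlap, and L-1236 control replicate 1 was the lowest of all 12 arrays. The control means were 10.95 ± 0.22 in U-HO1 and 9.84 ± 0.32 in L-1236, a log2 difference of 1.11 (SE 0.17, limma adjusted p = 0.00033), or 2.16-fold higher in U-HO1. Without U-HO1 control replicate 1 it was 1.00 (adjusted p = 0.00196) and without L-1236 control replicate 1 it was 0.94 (adjusted p = 0.00103), both below 2-fold before rounding.

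For ID2, MSC and IKZF3 both U-HO1 groups stood above both L-1236 groups, and for PAX5, TCF3, POU2AF1 and IKZF1 both stood below. Neighbouring groups of one line overlapped in each of these genes, except the L-1236 labels for MSC. Over both labels, 7 of the 9 members separated the 6 U-HO1 arrays from the 6 L-1236 arrays completely, against 30.5% of all genes, 3 of them higher in U-HO1 (15.0% of all genes) and 4 lower (15.5%). By limma 3 members were higher and 4 lower over both labels at an adjusted p under 0.05 (41.7% of all genes, 20.4% higher and 21.3% lower). Of these, 2 were at least 2-fold higher and 2 at least 2-fold lower (6.95% of all genes, 3.44% and 3.51%). On control arrays alone the same 7 were separate, against 40.3% of all genes, 3 of them higher (20.6%) and 4 lower (19.7%).

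**Figure D2:**
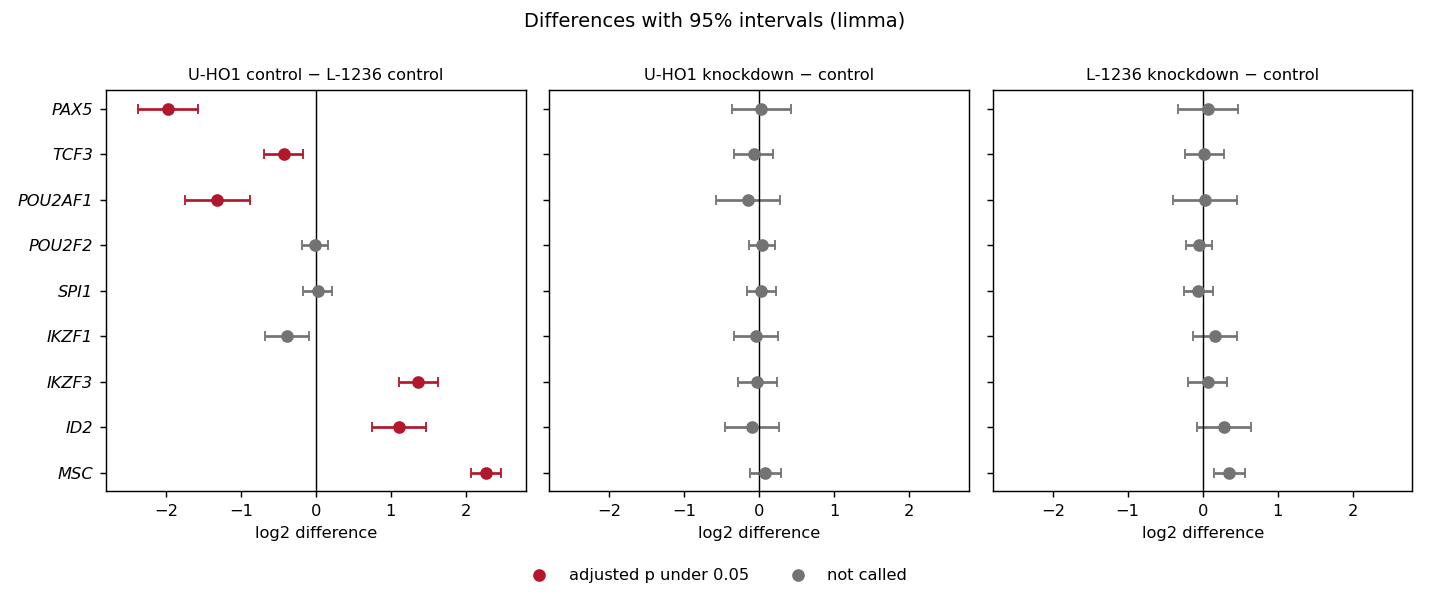
Log2 difference (x axis) of each of 9 genes (rows) with its 95% interval from limma, for U-HO1 control minus L-1236 control (left), knockdown minus control in U-HO1 (middle) and knockdown minus control in L-1236 (right). Red marks an adjusted p under 0.05. Differences between the lines run from -1.97 for PAX5 to 2.28 for MSC, and no difference between the labels is called.

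The labels were compared next. Since GATA3 was not shown to be lower on knockdown arrays, this comparison cannot show how a loss of GATA-3 changes the members. In U-HO1 the differences of the 9 members lay between -0.15 for POU2AF1 and 0.08 for MSC, and their 95% intervals together ran from -0.58 to 0.43. By limma 0 of 9 passed at an adjusted p under 0.05 or by the submitters' criteria (fold of 1.5 or more, with a false discovery rate up to 25%), as 0% of all genes did, and 0 had an unadjusted p under 0.05 (0.435% of all genes). No member separated the labels in U-HO1, against 3.03% of all genes.

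In L-1236 the differences lay between -0.06 for SPI1 and 0.36 for MSC, with 7 of 9 positive, and the 95% intervals together ran from -0.40 to 0.65. By limma 0 of 9 passed at an adjusted p under 0.05 or by the submitters' criteria, as 0% of all genes did. MSC was the only member with an unadjusted p under 0.05 (2.48% of all genes) and the only one whose labels did not overlap (7.91% of all genes, 3.44% with knockdown higher and 4.47% with knockdown lower): the lowest knockdown array read 9.70 and the highest control array 9.50. Its means were 9.79 ± 0.08 on knockdown arrays and 9.43 ± 0.07 on control arrays, a difference of 0.36 (SE 0.09, unadjusted p = 0.00226, limma adjusted p = 0.925). Over the alternatives the adjusted p ran from 0.372 to 1.00.

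ID2 came next in L-1236 with 0.29 (95% interval -0.08 to 0.65, limma adjusted p = 0.925) and means of 10.12 ± 0.12 on knockdown arrays and 9.84 ± 0.32 on control arrays, which overlapped. Without L-1236 control replicate 1, the lowest ID2 array, the difference was 0.11. The effect of the label on MSC did not pass as different between the lines, at -0.27 (95% interval -0.56 to 0.01, the effect in U-HO1 less that in L-1236, limma adjusted p = 1.00). None of the 9 members passed that test (0 of 9, 0% of all genes, with 0 at an unadjusted p under 0.05 against 1.04% of all genes).

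Single arrays of L-1236 moved several members together. L-1236 control replicate 1 was the lowest of the 6 L-1236 arrays for 6 of 9 members, PAX5, POU2AF1, IKZF1, IKZF3, ID2 and MSC, against 24.0% of all genes. The same array had the highest median (7.09) and the smallest SD over probe sets (1.62) of the 12. After quantile normalization, which gives all arrays the same distribution, it was the lowest for 4 of 9, POU2AF1, IKZF1, IKZF3 and ID2, against 21.1% of all genes.

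PAX5 and POU2AF1 were low on both L-1236 arrays of replicate 1. For PAX5 these deviated by -0.38 and -0.43 from the mean of the line, on the knockdown and the control array, and the other 4 arrays by 0.11 to 0.28. For POU2AF1 they deviated by -0.29 and -0.43, and the others by -0.05 to 0.44. Both replicate 1 arrays lay below the other 4 for these 2 members as deposited, against 8.72% of all genes, and for PAX5, POU2AF1 and IKZF1 after quantile normalization, against 7.40%. CD22, a B-cell surface lectin whose gene is in the list of targets below, had the same split, at -0.45 and -0.56 on replicate 1 and 0.16 to 0.31 on the rest. These arrays were singled out after their values were seen, and the part of array quality in the pattern was not tested. The 2 replicate 1 arrays bear different labels, so this spread adds to the error of the comparison of labels. Whether the number marks a shared culture day is not given in the sources used here.

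**Figure D3:**
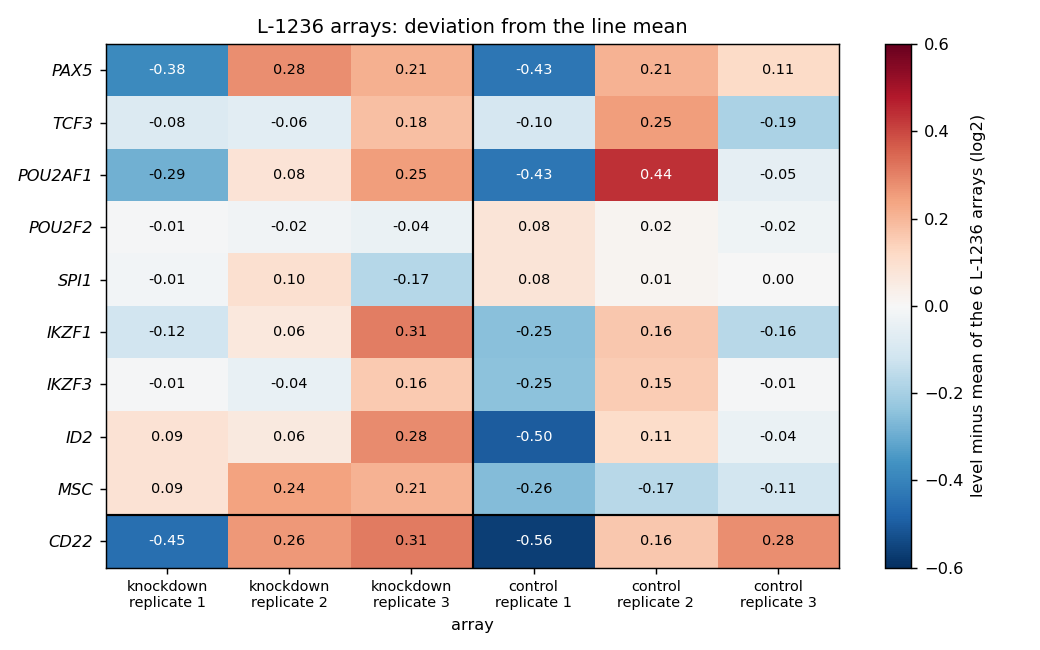
Deviation of each L-1236 array (columns, knockdown left and control right) from the mean of the 6 L-1236 arrays, in log2 units, for 9 genes and CD22 (rows), red above and blue below the mean. The replicate 1 columns are blue for PAX5, POU2AF1 and CD22, and control replicate 1 is the lowest array for ID2, at -0.50.

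The genes around these factors were then set beside them, in lists also chosen with earlier results of these data known. The first list gave 19 measured genes known as targets of B-lineage factors. Of the 19, 8 had no group mean above the 95th percentile of olfactory receptor probe sets: CD79A, MS4A1 (CD20), CR2, VPREB1, RAG1, RAG2, BANK1 and FCRLA. These 8 were named after their values were seen. The share of all genes without such a group mean was not counted. That percentile (6.61 to 6.87) lies close to the array medians (6.96 to 7.09), so the count is not a result about these targets. Between the lines 2 of 19 were higher and 3 lower in U-HO1 by limma at an adjusted p under 0.05 (16.4% and 15.6% of all genes), and the median difference was -0.0005 against -0.0023 for all genes.

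CD22 read 6.29, 6.37 and 6.25 on U-HO1 knockdown arrays and 6.49, 6.46 and 6.18 on U-HO1 control arrays. In L-1236 it read 8.51, 9.22 and 9.27 on knockdown arrays and 8.40, 9.12 and 9.24 on control arrays. CD22 was thus read above the guide to background in L-1236 and within it in U-HO1, with a control difference of -2.54 (SE 0.23, limma adjusted p = 5.02e-06), or 5.83-fold as measured, a size that depends on background. CD24, a surface glycoprotein of early B cells, went the other way, at 7.09 ± 0.21 in U-HO1 and 5.37 ± 0.29 in L-1236 (difference 1.72, adjusted p = 9.28e-06), the L-1236 level lying within the olfactory receptor range. The remaining 3 called genes, named after their values were seen, were BLNK, an adaptor of B-cell receptor signalling, at -0.90 (SE 0.09), the chemokine receptor gene CXCR5 at -0.55 (SE 0.10), and CIITA, the transactivator of MHC class II genes, at 0.81 (SE 0.08). BLNK averaged 6.27 in U-HO1 and 7.17 in L-1236, so its U-HO1 level lay within the olfactory receptor range and the size of its difference depends on background. CXCR5 averaged 6.22 in U-HO1, below the 95th percentiles of that guide. In L-1236 it averaged 6.76, within those percentiles (6.61 to 6.87), with control arrays from 6.52 to 6.96. The size of the CXCR5 difference depends on background too. CIITA averaged 7.90 in L-1236, within the range of COL1A1 on L-1236 arrays (7.78 to 8.10), so its size may also depend on background.

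Of 15 other transcription factors of B cells listed, 14 were measured, and 6 were higher and 3 lower in U-HO1 by limma (adjusted p under 0.05, 16.4% and 15.6% of all genes), with a median difference of 0.22. PRDM1 (BLIMP1), which drives plasma cell differentiation and represses PAX5, read 10.87, 10.98 and 10.80 on U-HO1 knockdown arrays, 11.03, 10.79 and 10.91 on U-HO1 control arrays, 8.44, 7.64 and 7.71 on L-1236 knockdown arrays and 7.75, 7.65 and 7.86 on L-1236 control arrays. It was 8.92-fold higher in U-HO1 on control arrays (log2 difference 3.16, SE 0.17, adjusted p = 7.87e-08), and L-1236 knockdown replicate 1 stood above the other L-1236 arrays. The L-1236 control levels lay within or below the range of the fibroblast marker COL1A1 on L-1236 arrays (7.78 to 8.10). The size of the PRDM1 difference may therefore depend on background.

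RUNX1, a factor of blood stem cells, averaged 10.01 ± 0.13 in U-HO1 and 7.93 ± 0.14 in L-1236 (difference 2.07, limma adjusted p = 4.30e-08), and IRF8, an interferon regulatory factor of B and myeloid cells, averaged 9.63 ± 0.28 in U-HO1 and 8.08 ± 0.13 in L-1236 (difference 1.54, adjusted p = 7.12e-06). Both L-1236 means lay within the range of COL1A1 on L-1236 arrays (7.78 to 8.10), so the sizes of these differences may depend on background. The 3 lower genes, named after their values were seen, were ETS1 at -0.96 (SE 0.14), BCL11A at -0.86 (SE 0.10) and LEF1 at -0.53 (SE 0.17, adjusted p = 0.0409). LEF1 lost its call in 8 of 12 fits that each left out 1 array, those without U-HO1 knockdown replicate 1, 2 or 3, U-HO1 control replicate 2 or 3, L-1236 knockdown replicate 2 or L-1236 control replicate 2 or 3, with an adjusted p of up to 0.127. Of the higher genes, 3 also lost their call in fits that each left out 1 array. BACH2, which had no group mean above the olfactory receptor percentile, lost it without U-HO1 control replicate 2 or 3 or L-1236 control replicate 2 or 3 (adjusted p up to 0.112). BCL6 lost it without U-HO1 control replicate 2 or 3 or L-1236 control replicate 1 or 2 (up to 0.0665), and FOXO1 without U-HO1 control replicate 1 or 2 or L-1236 control replicate 3 (up to 0.104). These 3 were named after their values were seen. Without U-HO1 control replicate 2, 5 of the 14 genes were called, against 32.0% of all genes in the full fit.

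Among 17 measured paralogues of the members, 2 were higher and 3 lower in U-HO1 by limma (16.4% and 15.6% of all genes), with a median difference of 0.04. POU2F3, an octamer factor of the same family as POU2F2 that is known from epidermis and tuft cells, read 6.65, 6.82 and 7.00 on U-HO1 knockdown arrays, 6.74, 6.88 and 6.40 on U-HO1 control arrays, 10.35, 10.28 and 10.48 on L-1236 knockdown arrays and 10.13, 10.54 and 10.06 on L-1236 control arrays. Its control difference of -3.57 (SE 0.15, adjusted p = 8.04e-09) was larger than that of any member, with U-HO1 around the 95th percentile of olfactory receptor probe sets. IKZF2 (Helios) averaged 7.00 ± 0.13 in U-HO1 and 8.02 ± 0.10 in L-1236 (difference -1.03, adjusted p = 4.01e-06), opposite in sign to the difference of IKZF3. Its means lay below the levels of COL1A1 in U-HO1 (7.68 to 7.95) and within them in L-1236 (7.78 to 8.10). The size of the IKZF2 difference may therefore depend on background.

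The other 3 called paralogues, named after their values were seen, were the E-protein gene TCF4 at 0.62 (SE 0.11), the PU.1 relative SPIB at 0.53 (SE 0.09) and IKZF4 at -0.31 (SE 0.08). TCF4 was thus higher in U-HO1 where TCF3 was lower. A further E-protein gene, TCF12, had the sign of TCF3, at -0.38 on control arrays (SE 0.14, limma adjusted p = 0.0708, not called). Over both labels TCF12 was called lower in U-HO1, at -0.46 (limma adjusted p = 0.00271). ID1, ID3 and ID4, the other members of the ID family, had no group mean above the olfactory receptor percentile and did not pass the test, with differences of 0.14, 0.19 and 0.04. In 7 of the 17 paralogues no group mean was above it. The share of all genes was not counted, so this is not a result about the list. TCF12, ID1, ID3 and ID4 were named with their values known.

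Of 19 measured genes of other blood lineages, 1 was higher and 1 lower in U-HO1 by limma at an adjusted p under 0.05 (16.4% and 15.6% of all genes), with a median difference of -0.01. CD4, the T-helper coreceptor, averaged 6.80 ± 0.09 in U-HO1 and 8.50 ± 0.46 in L-1236 (difference -1.70, adjusted p = 1.24e-05). Its U-HO1 level lay around the 95th percentile of olfactory receptor probe sets, so the size of the difference depends on background. NOTCH1, named after its value was seen, differed by 0.43 (SE 0.12, adjusted p = 0.0198), a call lost without U-HO1 control replicate 1 (adjusted p = 0.0654) or 3 (0.0808) or L-1236 control replicate 1 (0.0572) or 2 (0.0774). In 7 of the 19, including CD3E and CD3G of the T-cell receptor, no group mean was above the olfactory receptor percentile. The share of all genes without such a group mean was not counted, so this is not a result about the list. By limma 0 genes of the 4 lists passed an adjusted p of 0.05 between the labels in either line. At an unadjusted p under 0.05 there were 2 in L-1236, SPIC and CD4 (2.48% of all genes), and 0 in U-HO1 (0.435%). SPIC had no group mean above the olfactory receptor percentile.

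**Figure D4:**
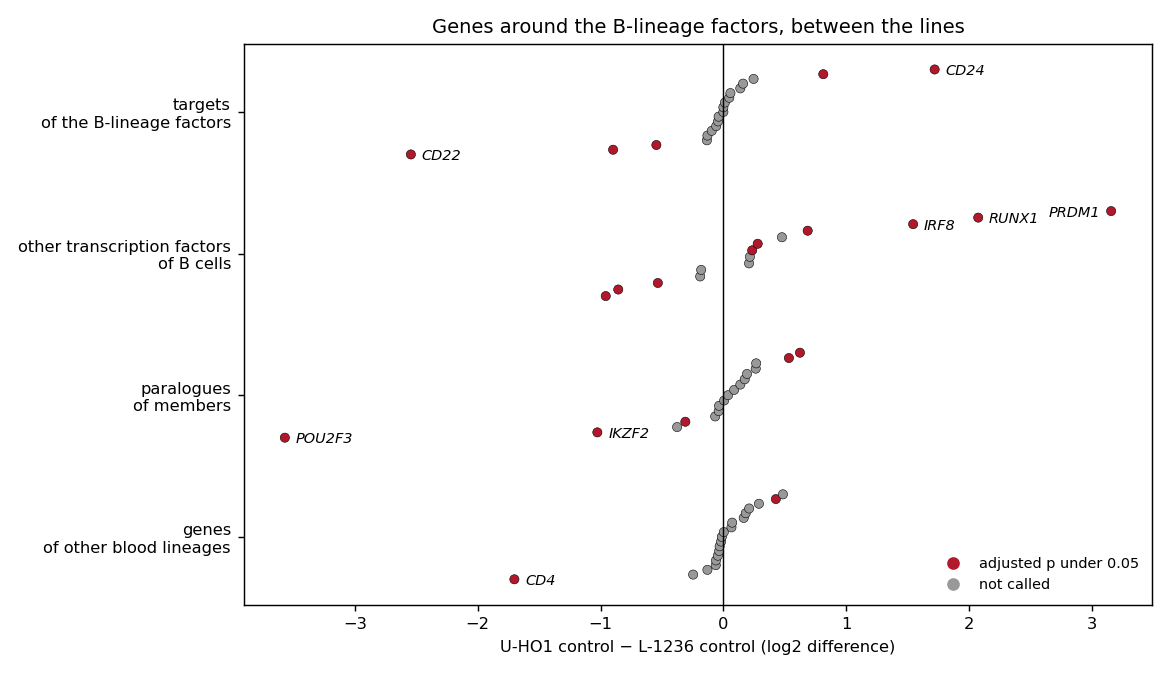
Log2 difference U-HO1 control minus L-1236 control (x axis) for the measured genes of 4 lists (rows; genes are spread vertically by rank), red where the limma adjusted p is under 0.05. Labelled genes passed that threshold with a difference of at least 2-fold, from POU2F3 at -3.57 to PRDM1 at 3.16.

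For the 5 members at least 2-fold apart on control arrays, the genes with the most similar profile over the 12 arrays were sought, by the mean absolute difference after each gene was centred on its own mean. For MSC these were PTPRK (0.106 log2 units), MTM1 (0.110) and LDAH (0.117), and for PAX5 they were SLC38A5 (0.0922), HOXD11 (0.0967) and LRP1 (0.107). For IKZF3 they were FSCN1 (0.0641), RIN3 (0.0786) and ADO (0.0825). For POU2AF1 they were H4C6 (0.116), PGBD5 (0.121) and RAVER2 (0.133), and for ID2 they were UBE2G1, SLC25A40 and C11orf24 (0.104, 0.105 and 0.108). These profiles are mostly the difference between the lines, which the genes share in size.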

How the data were processed

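RNA of 25000 sorted cells per sample was hybridised to 12 whole-transcript arrays, 3 for each line and label. The authors deposited 1 value per probe set on a log scale, read here as log2 from the range of 3.86 to 13.99. R 2.8.1 is named per the submitters' processing notes, while the sources used here state neither the background correction nor the normalization. Of 32321 probe sets, 19158 carry 1 gene symbol in the platform annotation, 1388 several and 11775 none. Levels were used as deposited.

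Groups came from the sample labels. One linear model with 4 group means was fitted to all probe sets with limma 3.58.1 in R 4.3.3 (8 residual degrees of freedom), p-values were adjusted by Benjamini-Hochberg over all 32321, and the fit was tested on simulated data. The deposited table has no counts or detection calls, so the number of arrays limits precision. Named by rule were the members, GATA3, for each list the 3 largest differences each way among genes called at 2-fold, and for each member called at 2-fold the 3 most similar genes. Other genes in the text fall outside this rule and were named with their values known. The members and lists were chosen with earlier results of these data known. Alternatives covered normalization, centring, dim probe sets, probe set choice, arrays in the fit, variance prior, array weights, the replicate number and each array left out. Replicate numbers were not used as pairs in the main fit.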

Additional observations from a re-analysis of the deposited data

How the results depend on the processing

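Between the lines, 5 to 7 members were called over 23 alternatives, against 6, and 4 to 5 at 2-fold or more, against 5. No called difference of a member changed sign. TCF3 lost its call with only the 6 arrays compared (adjusted p = 0.0554), with array quality weights (0.0516) and in both lines without the first knockdown and the third control array (0.0665), the last chosen after seeing the data. IKZF1 was called in 10 of 23 alternatives, at 0.000923 after quantile normalization. Between the labels, limma called 0 members in all 22 alternatives in either line, and 0 in 20 for the difference of the effects.

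Genes of other blood lineages called between the lines numbered 4 after quantile normalization, 1 with only the 6 arrays compared and 6 over both labels, against 2, and 1 to 3 with 1 array left out. Other transcription factors of B cells numbered 5 to 9 with 1 array left out, against 9. Paralogues numbered 8 over both labels, against 5, and 5 to 6 with 1 array left out. The cause was not tested.

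Same-numbered arrays correlated at -0.17, 0.06 and 0.32 in U-HO1 and at 0.17, -0.40 and -0.22 in L-1236, as deviations from group means. Knockdown and control arrays of different numbers correlated at -0.38 to 0.38 in U-HO1 and at -0.34 to 0.54 in L-1236. With 3 arrays a group, these values cannot show whether the numbers pair the samples. With the replicate number as a block, 6 members were called between the lines, 5 at 2-fold, and 0 between the labels, with an adjusted p of 0.910 for MSC in L-1236. Dim probe sets limit what can be seen, and 3 arrays a group limit precision.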
